A study of Rattus norvegicus with 24 samples.

Results

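The kidney's response to pregnancy was compared between Sprague Dawley (CD) rats, an outbred stock that the study took as its healthy pregnancy, and Brown Norway (BN) rats, an inbred strain that it used to model a pregnancy with a failing placenta. Pregnant rats of day 18 (P18) and non-pregnant (NP) females of the same strain gave 4 groups of 3 rats each, CD-NP, CD-P18, BN-NP and BN-P18. The labels give an age of 2 months, the growth notes 6 to 8 weeks, and they name no treatment besides pregnancy in any group. RNA came from kidney cross-sections of cortex and medulla, 1 sample per rat, and was depleted of ribosomal RNA. A gene belonged to the strain difference when its change with pregnancy in BN, minus its change in CD, had a Benjamini-Hochberg adjusted p under 0.1 in edgeR's quasi-likelihood test, fitted once over all 12 rats. These genes are called interaction genes. There were 134 of 14212 genes tested, or 0.943%, in 12 of the series' 24 libraries. The other 12 libraries hold DNA methylation data and were not used here.

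Pregnancy raises renal blood flow and filtration and makes the kidney retain salt and water, under steroid and peptide hormones of the ovary, adrenal gland and placenta. Renal tubules also carry a cell-autonomous circadian clock, make and break down the active form of vitamin D and synthesise their own cholesterol. An interaction gene is one in which the step from NP to P18 had another size or sign in BN than in CD, so that a gene raised alike in both strains is not among them, however large its rise.

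Reads on genes numbered 8274159 to 11879451 in a library. Levels are given as CPM, a gene's reads scaled to a common library size after TMM normalisation, with factors between 0.956 and 1.032. Proximal tubule markers summed to 2315 to 3231 CPM in every rat. Podocyte markers summed to 773.3 to 1020 CPM in CD-NP and 612.7 to 692.5 in CD-P18, which did not overlap. In BN-NP they summed to 794.8 to 868 CPM and in BN-P18 to 701.5 to 795.8, which overlapped. No listed marker of thick ascending limb, perirenal fat or adrenal cortex was among the tested genes with a symbol. These lists therefore say nothing of the presence or absence of such tissue. Gene symbols were available for 2926 of the tested genes, mostly genes that changed in some comparison of these same rats, so the background among genes with a symbol was higher, at 130 of 2926 or 4.44%. The test for pregnancy passed in 21.4% of them in CD (11.6% up, 9.81% down) and in 6.46% in BN (3.83% up, 2.63% down). Counts of the lists are set beside these shares. In whole tissue, fewer cells of a type and less RNA per cell cannot be told apart.

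Most of the interaction genes changed in CD rats. Of the 134 interaction genes, 95 passed the test for pregnancy in CD alone, 53 upregulated and 42 downregulated, where a change had to reach 0.32 on the log2 scale besides the adjusted p of 0.1. Another 18 passed in BN alone, 10 upregulated and 8 downregulated. In 5 genes both strains passed, and in 16 neither did. Over all tested genes, 4.71% passed in CD and 1.4% in BN. This sorting used the same fit as the choice of the genes and is a description. Leaving out 1 rat moved the number of interaction genes to between 51 (without BN-NP replicate 2) and 287 (without CD-NP replicate 1), and 42 of the 134 held in all 12 such fits.

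The log2 changes had opposite signs in 121 genes and the same sign in 13, which the choice of genes by the difference of the 2 changes favours. Opposite changes that passed in both strains were found in 4 genes. The median size of the change was 0.56 in CD and 0.28 in BN on the log2 scale, beside 0.14 and 0.11 over all tested genes, and 62 genes changed by less than 0.25 in BN while 14 did so in CD. NP and P18 rats did not overlap in 121 genes in CD (65 with P18 above, 56 below) and in 62 genes in BN (38 above, 24 below). Among all tested genes, 21.5% did not overlap in CD and 14.7% in BN. Because the genes were chosen on these values, nothing is read from these sizes, signs and shares. The change was higher in BN in 63 genes (0.443% of those tested) and lower in 71 (0.5%). With upper-quartile scaling 72 were higher and 52 lower, so neither direction prevailed under every scaling.

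**Figure D1:**
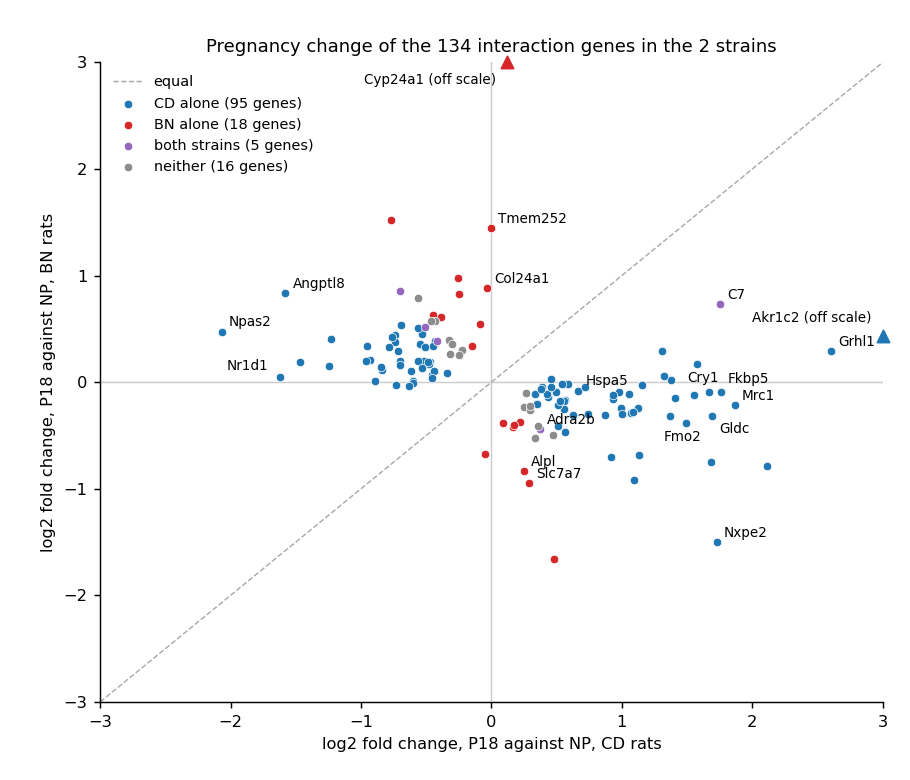
Log2 fold change from NP to P18 in CD rats (horizontal) and in BN rats (vertical) for the 134 interaction genes, each a point, coloured by the strain in which the change passed the test; the dashed line marks equal change. Most points lie to the upper left and lower right of the centre, 121 in all with opposite signs, and the 95 genes changed in CD alone spread along the horizontal axis. Cyp24a1 and Akr1c2 lie beyond the axes and are drawn as triangles at the edge.

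The gap between the strains was sorted in the same way. BN and CD differed at P18 alone in 58 genes (BN higher in 30, lower in 28), at NP alone in 46 (24 and 22) and at both stages in 21, by the same thresholds, under which 8.38% of all tested genes differed at NP and 9.6% at P18. In 20 of the 21 genes the direction turned between the stages. The choice of genes favours this, since the interaction is also the gap at P18 minus the gap at NP. The exception was Col24a1, a fibrillar collagen, which was lower in BN at both stages. Its level was 132, 171 and 158 CPM in CD-NP, 145, 146 and 158 in CD-P18, 43.2, 45.6 and 53.3 in BN-NP and 97.6, 83.7 and 80.7 in BN-P18. The CD groups overlapped, and the BN groups did not. Col24a1 rose in BN by 0.88 on the log2 scale and the interaction was 0.92 (standard error 0.15, edgeR adjusted p = 0.0225).

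**Figure D2:**
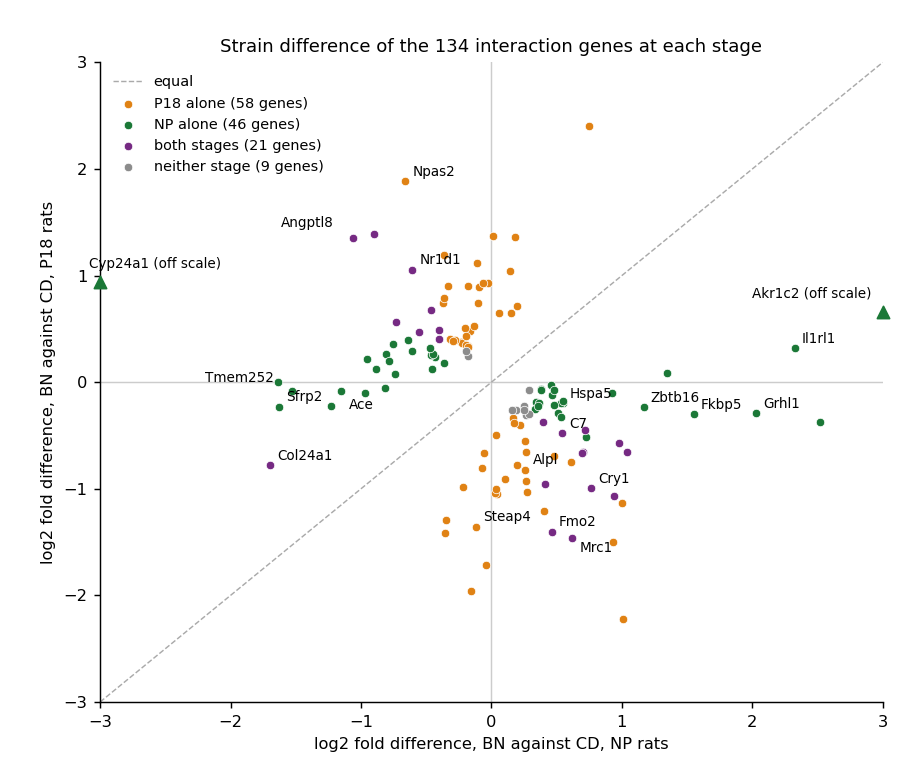
Log2 fold difference of BN against CD in NP rats (horizontal) and in P18 rats (vertical) for the 134 interaction genes, coloured by the stage at which the difference passed the test. The 46 genes that differed at NP alone lie along the horizontal axis and the 58 that differed at P18 alone along the vertical one. Cyp24a1 and Akr1c2 lie beyond the axes and are drawn as triangles at the edge.

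Most tested circadian clock genes passed the test for pregnancy in CD, and none did in BN. The clock runs as a loop in which the activators ARNTL, CLOCK and NPAS2 switch on Per, Cry and Nr1d1 through E-boxes, PER and CRY proteins switch the activators off, and NR1D1 and RORA repress and activate Arntl and Npas2. Of 20 genes listed, 10 had a symbol and were tested, and 6 of the 10 were interaction genes, beside 4.44% of all genes with a symbol. In CD 6 rose and 3 fell with pregnancy, and in BN none of the 10 passed, beside 21.4% of genes with a symbol that passed in CD and 6.46% in BN.

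The activator Npas2 stood at 20.1, 11.1 and 9.97 CPM in CD-NP and at 3.26, 3.42 and 3.16 CPM in CD-P18, against 9.57, 8.15 and 8.43 in BN-NP and 11.2, 13.6 and 11.6 in BN-P18. Every CD-P18 rat lay below every CD-NP rat, whereas the BN-P18 rats lay above the BN-NP rats. The log2 change of Npas2 was -2.07 in CD and 0.48 in BN, and the interaction was 2.54 (standard error 0.33, edgeR adjusted p = 0.00698). Nr1d1, the repressor REV-ERB alpha, was at 258, 281 and 309 CPM in CD-NP and 79.7, 87.9 and 109 in CD-P18, and at 233, 170 and 153 in BN-NP and 210, 202 and 161 in BN-P18. The BN groups overlapped. Its interaction was 1.66 (standard error 0.22, edgeR adjusted p = 0.00698), with a log2 change of -1.62 in CD and 0.05 in BN.

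Cry1 and Per2, both repressors of the loop, went the other way. Cry1 was at 3.97, 4.54 and 5.37 CPM in CD-NP and 15.1, 14.7 and 14.2 in CD-P18, a rise of 1.66 on the log2 scale, while BN-NP (5.44, 8.28 and 9.8) and BN-P18 (6.98, 6.65 and 8.4) overlapped. Its interaction was -1.76 (standard error 0.28, edgeR adjusted p = 0.0204). Per2 was at 80.0, 98.4 and 117 CPM in CD-NP and 214, 207 and 235 in CD-P18, and its BN groups overlapped (interaction -1.18, standard error 0.25, edgeR adjusted p = 0.0562). Usp2, a deubiquitinase under clock control, had an interaction of -1.36 (standard error 0.28, edgeR adjusted p = 0.0524) and rose in CD by 1.38. Rora had the smallest interaction of the 6, -0.53 (standard error 0.11, edgeR adjusted p = 0.0551), and passed in neither strain on its own. Npas2, Nr1d1 and Cry1 remained interaction genes in all 12 fits that each left out a rat. Per2 and Usp2 did so in 7 and Rora in 6, and without BN-NP replicate 2 the adjusted p of Per2 was 0.188 and that of Usp2 0.17, and without BN-P18 replicate 2 that of Rora was 0.154.

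**Figure D3:**
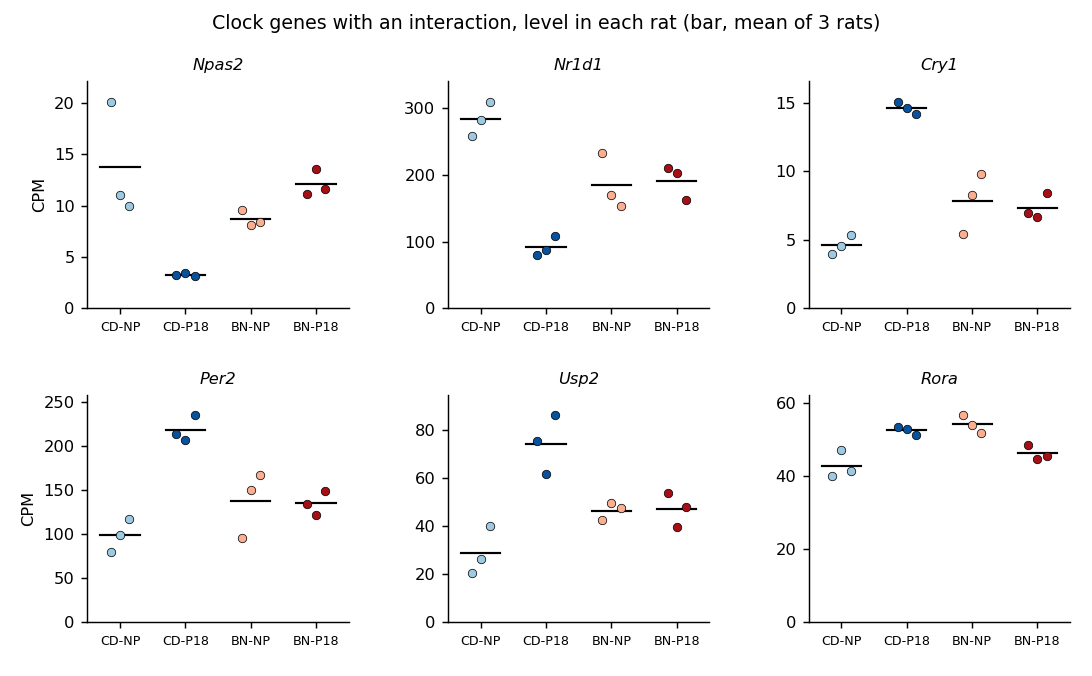
CPM of the 6 clock interaction genes in each of the 12 rats (points) with the mean of the 3 rats of a group (bar); every vertical axis starts at 0. The CD-P18 rats lie below the CD-NP rats for Npas2 and Nr1d1 and above them for Cry1, Per2, Usp2 and Rora.

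The other 4 tested members did not pass the interaction test. Of all 10, 9 had an unadjusted p under 0.05 and DESeq2 called 8, beside 1742 and 330 of the 14212 tested genes. Arntl, the partner of CLOCK and NPAS2, fell in CD by 1.59 on the log2 scale and had a value of 0.26 in BN, with an interaction of 1.85 (95% interval 0.77 to 2.93, edgeR adjusted p = 0.147). Tef, Hlf and Per1 rose in CD, and their interactions were -0.61, -0.42 and -0.35. Levels of clock transcripts vary over the day, and the hour at which each group was killed is not given in the sources used here, so its part in these values was not tested.

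Promoter windows from RefSeq (assembly GRCr8, 250 bases before to 50 after an annotated start) were found for 102 of the 130 interaction genes with a symbol, 118 windows in all. The E-box CACGTG, read on both strands, was in 8 of these windows (6.78%), in 8.76% of the 2477 windows of tested genes with a symbol and in 6.42% of all 33469 windows. The D-box TTATGNAA was in 7 (5.93%, beside 2.54% and 3.66%), and the ROR element TAGGTCA in 0 (beside 1.74% and 2.63%). The 2 clock genes with a match are shown upstream of their start, with the match in capitals, an E-box before the downstream of the 2 listed starts of Nr1d1 and a D-box before Per2.
Nr1d1, chr10:84229600-84229685, strand -: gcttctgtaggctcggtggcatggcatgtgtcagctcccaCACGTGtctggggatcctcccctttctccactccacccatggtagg
Per2, chr9:99497138-99497225, strand -: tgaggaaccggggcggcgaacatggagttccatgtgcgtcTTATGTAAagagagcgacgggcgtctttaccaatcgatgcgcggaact
The E-box of Nr1d1 begins 191 bases before that start and the D-box of Per2 192 bases before its start. The cAMP element TGACGTCA was in 4 windows of 2 genes (3.39%, beside 2.42% and 1.83%), the interferon element (GAAA, 2 bases, GAAA) in 5 (4.24%, beside 4.48% and 3.92%) and the glucocorticoid element (ACA, 3 bases, TGT, 1 base, CT) in 2 (1.69%, beside 0.848% and 1.24%). A match of letters is no evidence of binding, and a window without one says nothing of the factor.

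The cholesterol genes that passed all had the higher change in BN. Sterol-regulated genes share the transcription factor SREBP2, which is released when cell cholesterol is low and raises the enzymes of cholesterol synthesis. Of 25 genes listed, 12 had a symbol and were tested. Of these, 6 were interaction genes, all 6 with the higher change in BN, beside 4.44% of genes with a symbol. The median interaction of the 12 was 0.93 on the log2 scale, beside 0.02 over all tested genes with a symbol, and 11 of the 12 had a value above 0. Genes with a symbol were mostly those that changed in some comparison of these rats, so the 12 need not stand for the 25. In BN 5 of the 12 rose and none fell, and in CD 2 fell and none rose, beside 3.83% up in BN and 9.81% down in CD among genes with a symbol.

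Hmgcs1, which makes the HMG-CoA that the pathway starts from, was at 48.2, 49.4 and 46.7 CPM in CD-NP, 40.8, 38.1 and 41.8 in CD-P18, 31.5, 45 and 38.1 in BN-NP and 97.1, 81.7 and 46.6 in BN-P18. It rose in BN by 0.98 on the log2 scale, its CD change of -0.26 did not pass, and the interaction was 1.23 (standard error 0.28, edgeR adjusted p = 0.0897).

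The later enzymes followed. The sterol demethylase Cyp51 rose in BN by 0.63 and the squalene epoxidase Sqle by 0.61 on the log2 scale, with interactions of 1.08 (standard error 0.22, edgeR adjusted p = 0.0499) and 1.0 (standard error 0.21, edgeR adjusted p = 0.0555). Idi1, an isomerase of the isoprene units, had an interaction of 1.35 (standard error 0.32, edgeR adjusted p = 0.0994), with values of -0.56 in CD and 0.79 in BN that passed in neither.

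BN-P18 replicate 3 had the lowest level of the 3 BN-P18 rats in all 12 cholesterol genes. Without it the interactions were larger, 1.48 for Hmgcs1 and 1.23 for Cyp51 (edgeR adjusted p = 0.00595 and 0.0182). Leaving out the rat of lowest level raises the BN-P18 mean, so larger interactions follow from the choice of that rat and add no support. Cyp51 and Sqle held in 7 of the 12 fits without a rat, and Hmgcs1 and Idi1 in 2. Their adjusted p reached 0.124 for Cyp51 without CD-P18 replicate 1, and without BN-P18 replicate 2 it reached 0.154 for Sqle and 0.216 for Hmgcs1 and Idi1. A sterol element (TCACNCCAC), searched after these values were known, was in 0 of the 118 promoter windows, in 1.09% of those of tested genes with a symbol and in 1.12% of all.

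**Figure D4:**
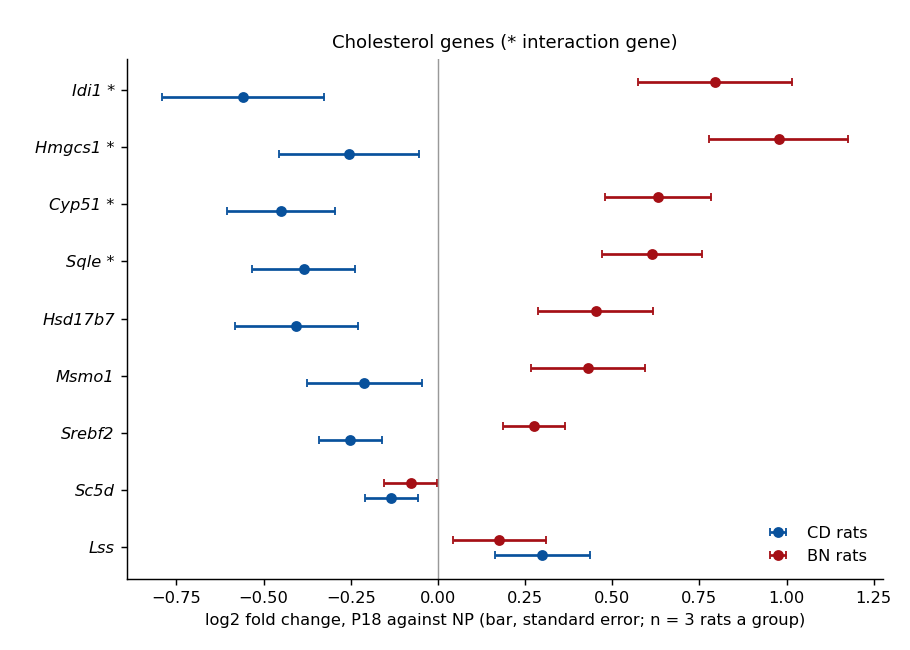
Log2 fold change from NP to P18 with its standard error in CD rats (blue) and BN rats (red) for 9 of the 12 tested cholesterol genes, ordered by the interaction, with interaction genes starred. The BN value lies to the right of the CD value in 8 of these 9 genes, Lss being the exception.

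Tsc22d3, Fkbp5 and Zbtb16 rose in CD alone. Tsc22d3 (GILZ) and Fkbp5 are induced through the glucocorticoid and mineralocorticoid receptors and stood in the list of renin-angiotensin and sodium transport. Tsc22d3 was at 73.2, 54.0 and 76.4 CPM in CD-NP and 208, 147 and 184 in CD-P18, while BN-NP (105, 138 and 159) and BN-P18 (123, 102 and 138) overlapped. Its interaction was -1.55 (standard error 0.24, edgeR adjusted p = 0.0204). Fkbp5 rose from 19.1, 27.1 and 27.0 CPM in CD-NP to 101, 57.1 and 87.9 in CD-P18, with BN-NP at 63.9, 64.4 and 85.4 and BN-P18 at 92.6, 34.5 and 74.4. The non-pregnant BN rats were already above every non-pregnant CD rat in both genes. The interaction of Fkbp5 was -1.85 (standard error 0.42, edgeR adjusted p = 0.0844), and it held in 3 of the 12 fits without a rat, up to an adjusted p of 0.193 without CD-P18 replicate 1. Zbtb16, another glucocorticoid-induced transcription factor, named after its values were seen, had an interaction of -1.40 (standard error 0.32, edgeR adjusted p = 0.0887) and held in 5 of the 12.

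Of 13 tested genes of the renin-angiotensin and sodium transport list, 4 were interaction genes, beside 4.44% of genes with a symbol. In CD 4 rose and 2 fell, and in BN none passed (11.6% up and 9.81% down in CD and 6.46% in BN among genes with a symbol). Besides the pair above they were Ace and Slc12a3, both with the higher change in BN. Ace, the angiotensin-converting enzyme, was at 27.6, 29.2 and 37.2 CPM in CD-NP and 21.7, 24.1 and 17.8 in CD-P18, and at 14.1, 12.9 and 15.2 in BN-NP and 20.9, 20.1 and 19.0 in BN-P18. Every CD rat lay above every BN rat at NP, and the strains overlapped at P18. Its interaction was 1.07 (standard error 0.19, edgeR adjusted p = 0.0281), with a fall of 0.56 in CD that passed and a value of 0.51 in BN that did not. Slc12a3, the thiazide-sensitive sodium chloride cotransporter of the distal convoluted tubule, was at 857, 807 and 880 CPM in CD-NP and 602, 641 and 635 in CD-P18, with the BN groups overlapping between 667 and 852. Its interaction was 0.54 (standard error 0.12, edgeR adjusted p = 0.0695) and held in 3 of the 12 fits without a rat, up to 0.199 without BN-NP replicate 2. Klhl3, a regulator of that cotransporter, fell in CD by 0.55 and did not pass for the interaction (0.48, 95% interval 0.07 to 0.89), and the 3 tested markers of this tubule had a sum of 920 to 980.7 CPM in non-pregnant CD rats and 699.6 to 741 in pregnant ones, and of 782.2 to 970.3 and 861.3 to 970.5 CPM in the BN rats. Slc12a3 makes up most of that sum.

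Hspa5 and Hspa8, the 2 interaction genes among 6 tested members of the heat shock list, had the lower change in BN. Both rose in CD, no other member passed in either strain, and the interactions of the other 4 were below 0 without passing (4.44% interaction genes and 11.6% up in CD among genes with a symbol). An unadjusted p under 0.05 was seen in 5 of the 6, and DESeq2 called 4, beside 1742 and 330 of all 14212 tested genes. Hspa5 (BiP), the main chaperone of the endoplasmic reticulum (ER), was at 362, 379 and 403 CPM in CD-NP and 652, 607 and 554 in CD-P18, and at 541, 570 and 561 in BN-NP and 586, 468 and 529 in BN-P18. Every CD-P18 rat lay above every CD-NP rat, while the BN groups overlapped (interaction -0.74, standard error 0.12, edgeR adjusted p = 0.0225). Hspa8, a cytosolic chaperone, followed with 500, 494 and 557 CPM in CD-NP and 745, 726 and 715 in CD-P18 and an interaction of -0.59 (standard error 0.10, edgeR adjusted p = 0.0281). Both calls held in all 12 fits without a rat. Other ER proteins among the interaction genes, named after their values were seen, were Manf, Pdia4 and Hyou1, with interactions of -0.72, -0.44 and -0.45 (edgeR adjusted p = 0.0562, 0.0617 and 0.0811), each raised in CD alone. They held in 7, 5 and 5 of the 12 fits, and Hyou1 was lost with upper-quartile scaling.

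The ER stress element (CCAAT, 9 bases, CCACG), also searched after these values were known, was in 1 of the 118 windows, that of Hspa5, in 0.283% of the windows of tested genes with a symbol and in 0.0657% of all windows. Its stretch upstream of the start is shown with the match in capitals, which begins 43 bases before the start.
Hspa5, chr3:38452933-38453015, strand +: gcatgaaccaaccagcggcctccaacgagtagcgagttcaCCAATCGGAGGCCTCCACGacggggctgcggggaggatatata
No window of the other ER proteins named held these letters.

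**Figure D5:**
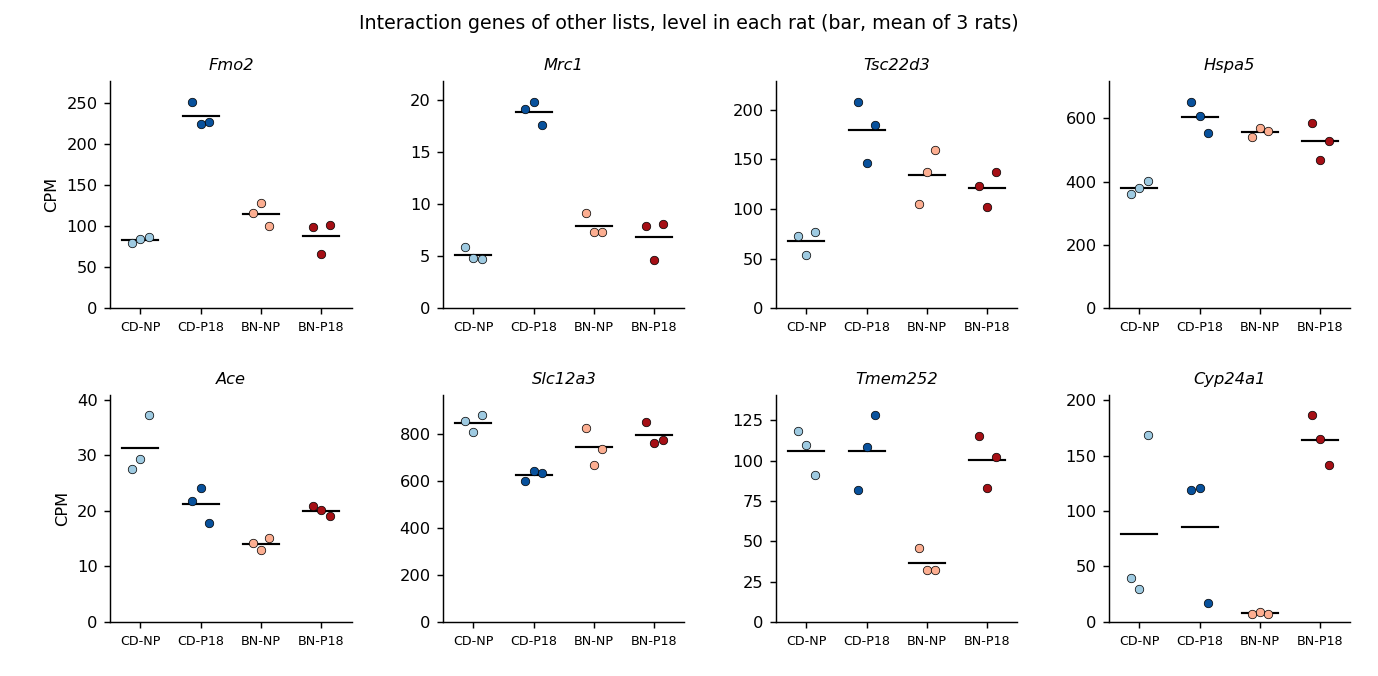
CPM of 8 interaction genes in each of the 12 rats (points) with the mean of the 3 rats of a group (bar); every vertical axis starts at 0. Fmo2, Mrc1, Tsc22d3 and Hspa5 are higher in CD-P18 than in CD-NP with overlapping BN groups, Tmem252 is higher in BN-P18 than in BN-NP, and Cyp24a1 has 1 CD-NP rat and 1 CD-P18 rat far from the other rats of their groups.

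The smallest p of all tested genes belonged to Fmo2, a flavin-containing monooxygenase that oxidises drugs and other foreign compounds. It was at 79.4, 84.6 and 86.4 CPM in CD-NP and 251, 224 and 227 in CD-P18, and at 116, 129 and 100 in BN-NP and 99.1, 65.9 and 101 in BN-P18. It rose in CD by 1.49 on the log2 scale, the BN value of -0.38 did not pass, and the interaction was -1.87 (standard error 0.19, edgeR adjusted p = 0.00254). Of 17 tested genes of xenobiotic and glutathione metabolism, the only other interaction gene was Aldh1a1, a retinaldehyde dehydrogenase, which fell in CD from 207, 256 and 228 CPM to 158, 142 and 146 and had an interaction of 0.60 (standard error 0.12, edgeR adjusted p = 0.0552). It held in 7 of the 12 fits without a rat, up to 0.186 without BN-NP replicate 2. The 2 interaction genes were 11.8% of the tested list, beside 4.44% of genes with a symbol.

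Macrophage and complement genes had the lower change in BN where they passed. Mrc1, the mannose receptor of tissue macrophages, was at 5.90, 4.85 and 4.71 CPM in CD-NP and 19.1, 19.8 and 17.6 in CD-P18, and at 9.13, 7.30 and 7.38 in BN-NP and 7.94, 4.65 and 8.08 in BN-P18. Mrc1 was higher in every CD-P18 rat than in every CD-NP rat, with overlapping BN groups (interaction -2.08, standard error 0.27, edgeR adjusted p = 0.00698). C1qb, a chain of the first complement component, had an interaction of -1.02 (standard error 0.23, edgeR adjusted p = 0.0868) and held in 2 of the 12 fits without a rat, up to 0.216 without BN-P18 replicate 2, and not with upper-quartile scaling (0.101). The other chains, C1qa and C1qc, rose in both strains, with interactions of 0.03 (95% interval -0.44 to 0.49) and -0.26 (95% interval -0.72 to 0.19).

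Among the 9 tested macrophage markers 8 rose in CD and 3 in BN, and 2, Mrc1 and C1qb, were interaction genes, beside 11.6% of genes with a symbol that rose in CD, 3.83% that rose in BN and 4.44% interaction genes. The 9 markers together had 290.8 to 374.6 CPM in non-pregnant and 476.7 to 594 CPM in pregnant CD rats, and 255.5 to 277.5 and 373.5 to 457.8 CPM in the BN rats, and none was at 0 in any rat. The sum was thus higher at P18 in both strains, and its part in the values of single genes was not tested. C7, a part of the membrane attack complex, was the interaction gene that rose in both strains, from 260, 245 and 223 CPM to 899, 772 and 784 in CD and from 385, 402 and 274 to 568, 487 and 705 in BN. Its interaction of -1.02 (standard error 0.21, edgeR adjusted p = 0.0506) held in 6 of the 12 fits without a rat, up to 0.17 without BN-NP replicate 2. Pros1, the anticoagulant protein S, rose in CD alone (interaction -0.70, standard error 0.16, edgeR adjusted p = 0.098), and was lost with upper-quartile scaling (0.118) and in 10 of the 12 fits without a rat, up to 0.263 without BN-NP replicate 2. C1qb, C7 and Pros1 were the 3 interaction genes among 13 tested genes of complement and coagulation, beside 4.44% of genes with a symbol. In CD 7 of the 13 rose and 1 fell, beside 11.6% and 9.81% of genes with a symbol. In BN 3 rose and 0 fell, beside 3.83% and 2.63%.

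Tmem252 passed the test for pregnancy in BN alone, and Tnfaip3 in CD alone. Tmem252, a membrane protein, rose in BN by 1.44, from 46.0, 31.9 and 32.5 CPM to 115, 83 and 102, with the CD groups overlapping between 81.8 and 128 (interaction 1.45, standard error 0.25, edgeR adjusted p = 0.0261). Tnfaip3, a brake on NF-kB signalling from the list of acute phase and tubular injury, fell in CD by 0.55 and had a value of 0.36 in BN that did not pass. Its interaction was 0.90 (standard error 0.20, edgeR adjusted p = 0.0844), which held in 3 of the 12 fits without a rat, up to 0.23 without BN-NP replicate 2. The tubular injury markers Lcn2 and Havcr1 of that list did not pass in either strain, and their interactions were 0.89 (95% interval -0.20 to 1.97) and -1.66 (95% interval -3.25 to -0.07). Of the 11 tested genes of the list 2 were interaction genes, or 18.2%, beside 4.44% of genes with a symbol.

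Among genes that fell in BN alone, Slc7a7, the basolateral exporter of cationic amino acids in the proximal tubule, was at 216, 208 and 153 CPM in BN-NP and 131, 76.1 and 91.6 in BN-P18, with overlapping CD groups. Its interaction was -1.24 (standard error 0.26, edgeR adjusted p = 0.056) and held in 5 of the 12 fits without a rat, up to 0.181 without BN-NP replicate 2. Of the 7 tested proximal tubule markers 3 fell in BN and none in CD, and 1 was an interaction gene, beside 2.63%, 9.81% and 4.44% of genes with a symbol. The 7 summed to 2402 to 3231 CPM in BN-NP and 2315 to 2921 in BN-P18, which overlapped, and to 2418 to 2502 and 2362 to 2789 in CD. Plcl1, an inactive relative of phospholipase C, fell in BN from 70.6, 69.1 and 67.1 CPM to 56.2, 50.2 and 53.7 (interaction -0.59, standard error 0.09, edgeR adjusted p = 0.0221). In CD it went from 55.2, 54.2 and 54.7 CPM to 62.1, 61.1 and 67.8, a log2 change of 0.22 that did not pass (edgeR adjusted p = 0.102). Alpl, the tissue-nonspecific alkaline phosphatase, named after its values were seen, fell from 507, 420 and 343 CPM to 264, 234 and 214 in BN, and had an interaction of -1.08 (standard error 0.18, edgeR adjusted p = 0.0225).

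Cyp24a1, the enzyme that breaks down active vitamin D, had the second largest interaction in size after Akr1c2. The level was 7.5, 8.88 and 7.48 CPM in BN-NP and 186, 165 and 141 in BN-P18, and the rise passed the test (4.37 on the log2 scale). The CD rats were at 39.4, 29.9 and 169 CPM in CD-NP and at 119, 121 and 17.1 in CD-P18, so that these groups overlapped widely. The interaction was 4.25 (standard error 0.97, edgeR adjusted p = 0.0878), it held in 3 of the 12 fits without a rat, and without CD-NP replicate 3 it was 3.06 (edgeR adjusted p = 0.149). The adjusted p was highest without BN-NP replicate 2, at 0.231. Cyp27b1, which makes active vitamin D, fell in BN (-2.92) from 3.37, 5.11 and 1.05 CPM to 0.429, 0.274 and 0.531, while no CD rat had more than 0.527 CPM. Its interaction of -2.39 did not pass (95% interval -4.97 to 0.18, edgeR adjusted p = 0.449), and 3 reads corresponded to 0.257 to 0.365 CPM, so that the CD change could not be read at this depth. Of the other 6 tested genes of vitamin D, calcium and phosphate handling none passed for the interaction. Trpv5, the calcium channel of the distal tubule, had the smallest p among them, with an interaction of 0.60 (95% interval 0.16 to 1.04, edgeR adjusted p = 0.241). The list thus held 1 interaction gene among 8 tested, or 12.5%, beside 4.44% of genes with a symbol.

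Akr1c2, an aldo-keto reductase that acts on steroids, was named after its values were seen because the rats of a group disagreed. It was at 0.193, 0.317 and 0.329 CPM in CD-NP, at or under 3 reads, and at 261, 242 and 1.02 CPM in CD-P18, while all 6 BN rats had between 141 and 294 CPM. Within CD-P18 2 rats were at the level of the BN rats and 1 was near 0. The call (edgeR adjusted p = 0.0713) held in 4 of the 12 fits without a rat, and the gene could not be tested with the filter of at least 1 CPM in all 12 rats. Close copies in the same family can share its reads. No fold is given, since CD-NP lay at or under 3 reads.

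In 5 genes both strains passed. Among them, C7 rose in both, and LOC102551819, Pmepa1 and Adra2b changed in opposite directions. LOC102551819, which has no assigned role, fell from 24.4, 22.3 and 25.3 CPM to 19.5, 14 and 16.7 in CD and rose from 15.5, 17.8 and 15.7 to 23.4, 23.3 and 23.3 in BN (interaction 1.03, standard error 0.17, edgeR adjusted p = 0.0221). Pmepa1, a membrane protein that dampens TGF-beta signalling, fell by 0.42 in CD and rose by 0.39 in BN on the log2 scale (interaction 0.81, standard error 0.13, edgeR adjusted p = 0.0225). Adra2b, the alpha-2B adrenergic receptor, showed the reverse, from 46.8, 46.3 and 41.8 CPM to 56.7, 54.4 and 63.3 in CD and from 53.6, 55.1 and 52.9 to 41.5, 35.0 and 42.5 in BN (interaction -0.81, standard error 0.12, edgeR adjusted p = 0.0186). In these 3 genes neither strain's groups overlapped.

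The remaining genes with the smallest p passed the test for pregnancy in CD alone. Those with the lower change in BN were Gramd1b, which carries cholesterol from the plasma membrane to the ER, Steap4, a metalloreductase, Ak4, a mitochondrial adenylate kinase, Gldc, the glycine decarboxylase, Nat8f5, an acetyltransferase of a family with close copies, and LOC688553. They rose in CD by 0.93 to 1.69 on the log2 scale, their BN values lay between -0.32 and -0.10, and every CD-P18 rat was above every CD-NP rat. Gldc had the largest step, from 37.7, 39.8 and 24.1 CPM to 118, 106 and 105, with overlapping BN groups. Those with the higher change in BN were Ggct, the gamma-glutamylcyclotransferase of glutathione breakdown, Scube3, a secreted protein, Fam83e, Traf3ip2, the adaptor of the interleukin 17 receptor, and Actn1, the actin cross-linker alpha-actinin. They fell in CD by 0.47 to 0.95. Their BN values lay between 0.17 and 0.54 and did not pass. Every BN-P18 rat was above every BN-NP rat in all of them but Scube3, and 14.7% of all tested genes did not overlap in BN. The choice of these genes by the higher change in BN favours this, and nothing is read from it. Ggct went from 173, 191 and 228 CPM to 106, 101 and 98 in CD and from 132, 96.3 and 129 to 157, 146 and 148 in BN. All 11 held in each of the 12 fits without a rat.

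Most interferon genes rose in both strains. Of 37 tested genes of the interferon list 31 rose in CD and 30 in BN, none fell, and none was an interaction gene, beside 11.6%, 3.83% and 4.44% of genes with a symbol. At an unadjusted p under 0.05 there were 9, and DESeq2 called 3, beside 1742 and 330 of all 14212 tested genes. The median interaction was -0.09. The smallest p belonged to Psmb9, a subunit of the immunoproteasome, with an interaction of 0.87 (95% interval 0.41 to 1.34, edgeR adjusted p = 0.115), and to Ifi27, an interferon-induced mitochondrial protein, at 54.0, 33.2 and 26.5 CPM in CD-NP and 211, 150 and 223 in CD-P18, against 30.0, 27.9 and 31.0 in BN-NP and 57.3, 59.6 and 81.4 in BN-P18. Ifi27 rose in both strains, and its interaction of -1.20 did not pass (95% interval -1.87 to -0.53, edgeR adjusted p = 0.132). Oas1a rose in both as well, with an interaction of -0.28 (95% interval -1.36 to 0.79).

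Nor did the remaining lists hold any. Of 14 immediate early genes none passed for the interaction (5 at an unadjusted p under 0.05, 2 by DESeq2), although 10 had a value above 0 and the median was 0.47. Ier2 and Atf3 had the smallest p, with interactions of 0.98 (95% interval 0.44 to 1.52) and 1.75 (95% interval 0.73 to 2.77), and Fos had 0.89 (95% interval -0.62 to 2.40). None of 8 genes of fatty acid oxidation, 9 of extracellular matrix, 3 of water transport and 9 of sex steroid and prolactin signalling passed (2, 3, 1 and 4 at an unadjusted p under 0.05, and 1, 1, 1 and 3 by DESeq2). Over all 14212 tested genes, 1742 had an unadjusted p under 0.05 and DESeq2 called 330. Fabp3, a fatty acid binding protein, had 0.65 (edgeR adjusted p = 0.126) and Cyp4a1, a fatty acid hydroxylase, -0.63 (0.391), the gelatinase Mmp2 -0.90 (0.135) and elastin Eln 0.80 (0.211). The growth hormone receptor Ghr had -0.49 (0.122), the estradiol-oxidising Hsd17b2 -1.39 (0.148), the taurine transporter Slc6a6 -0.57 (0.133) and the aquaporin Aqp11 -0.28 (0.692). Mmp9, the other gelatinase, had -0.22 (95% interval -1.51 to 1.07).

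None of the tested markers of collecting duct, inner medulla, podocyte, endothelium, fibroblast, lymphocyte or red blood cell, 17 in all, was an interaction gene. Of the 17, 6 had an unadjusted p under 0.05 and DESeq2 called 3, beside 1742 and 330 of all 14212 tested genes. All 4 podocyte genes had an interaction above 0. Of these, 3 fell in CD and 0 in BN, beside 9.81% down in CD and 2.63% in BN among genes with a symbol. At the threshold, the last interaction genes were Idi1 and the creatine transporter Slc6a8 (both at an edgeR adjusted p of 0.0994) and the first genes outside were Notch3 (0.102) and Sash1 (0.103).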

How the data were processed

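RNA-seq of 12 kidney sections was analysed, grouped by the strain, stage and number in the labels. The authors used Trimmomatic on the reads, STAR for alignment (build Rnor6.0) and HTSeq for counting, and deposited the raw counts, 1 column per rat. The submitters' processing notes name STAR 2.5.2, HTSeq 0.6.1 and edgeR 3.26.8. The annotation release and the strand setting of the counting are not given in the sources used here, so reads of overlapping or antisense genes may be shared, and near-identical copies lose reads. Rnor6.0 is a BN assembly, so a level difference between strains cannot be told apart from unequal mapping. Summary lines of HTSeq (72.5 to 75.6% of entries) stayed out of all totals and tests.

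Here, R 4.3.3 with edgeR 4.0.16 was used. Of 32883 genes, the 14212 kept by filterByExpr were scaled by TMM and fitted in 1 quasi-likelihood model of 4 groups (glmQLFit and glmQLFTest) without covariates, with Benjamini-Hochberg adjustment over all of them. Standard errors derive from the F statistic and intervals are at 95%. P-values measure the spread between the 3 rats of a group. The fit was tested on simulated counts with interactions set by changing the BN-P18 libraries. It recovered 53% of those of size 1 on the log2 scale and 90% of those of size 2. Of its calls, 10.1% were unchanged genes. A gene that did not pass can therefore still differ between the strains. Reads on a gene cover counting error only, and 3 reads were 0.257 to 0.365 CPM.

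The table gives Ensembl identifiers. Symbols were paired with them by matching log2 fold changes and levels of the study's gene table with the same comparisons of the counts within 0.01, which paired 3063 of 3064. That table holds fold changes and p-values of the authors' own comparisons, which were used for nothing else and are not printed. It favours genes that changed. The methylation files were not used here.

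Members, lists and tests were chosen with earlier results of these data known. Named are the 12 interaction genes of smallest p in each direction, those in a list, those called in both strains, the 2 smallest p of each response list, and the 8 genes the study measured by PCR. Alternatives were other scalings, filters and thresholds, DESeq2 1.42.0, a replicate block and leaving out each rat. Promoter windows are RefSeq's, GRCr8. Some genes that this rule picks are not reported here.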

Additional observations from a re-analysis of the deposited data

Results flagged for a closer look

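In each named interaction gene the change with pregnancy differed between the strains by the test of the difference itself, edgeR's interaction term. Values are log2 changes in BN minus those in CD. Among the genes with the higher change in BN the value was Ggct 1.29, Npas2 2.54, Nr1d1 1.66, Scube3 0.90, LOC102551819 1.03, Pmepa1 0.81, Col24a1 0.92, Fam83e 1.23, Traf3ip2 0.66, Actn1 0.65, Tmem252 1.45 and Ace 1.07. It was Cyp51 1.08, Aldh1a1 0.60, Sqle 1.0, Slc12a3 0.54, Tnfaip3 0.90, Cyp24a1 4.25, Hmgcs1 1.23 and Idi1 1.35 in the others of that direction.

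Among the genes with the lower change in BN the value was Fmo2 -1.87, Gramd1b -1.37, Mrc1 -2.08, Steap4 -1.24, Ak4 -1.30, Gldc -2.01, LOC688553 -1.09, Adra2b -0.81, Tsc22d3 -1.55, Cry1 -1.76, Plcl1 -0.59 and Nat8f5 -1.07. In the rest of them it was Hspa5 -0.74, Hspa8 -0.59, C7 -1.02, Usp2 -1.36, Rora -0.53, Slc7a7 -1.24, Per2 -1.18, Fkbp5 -1.85, C1qb -1.02 and Pros1 -0.70.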

How the results depend on the processing

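The number of interaction genes (134) was 329 with no filter on low counts, 330 by DESeq2, 235 with the replicate block and 64 at an adjusted p under 0.05, and 51 to 287 when 1 rat was left out. For the higher change in BN (63) these were 155 with no filter, 143 by DESeq2, 30 at 0.05 and 24 to 142 without a rat, and for the lower change (71) 174, 187, 34 and 26 to 145, with 146 under the block. Genes changed in CD numbered 225 (669) and in BN 70 (199) at an adjusted p under 0.05 and a fold over 1.5, 328 to 706 and 27 to 228 without a rat, and 352 in BN with no filter. The class CD alone (95) was 193 with no filter, 181 by DESeq2 and 41 to 197 without a rat. BN alone (18) was 59, 47 and 5 to 33, and 40 under the block. Both strains (5) was 16, 9 and 0 to 8, 9 under the block and 34 where an unadjusted p under 0.05 sorted the strains. Neither (16) was 61, 93 and 2 to 49, 45 under the block and 8 by the unadjusted p. The causes were not tested.

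Of the genes picked by the naming rule 45 were called, and none of these reversed. Of genes not called, Oas1a ranged from -0.78 to 0.031 when 1 rat was left out, with the sign turned for BN-NP replicate 2. Mmp9 ranged from -0.50 to 0.25, with the sign turned for replicate 2 of BN-NP (0.14), of BN-P18 (0.16) and of CD-P18 (0.25). Of the 45 calls, replicate 2 took 15 with it when left out of BN-NP, 15 for CD-NP and 16 for BN-P18, leaving out CD-P18 replicate 1 lost 16, and each of the other 8 rats lost 1 to 13. With upper-quartile scaling 124 genes passed, 58.1% with the higher change in BN beside 47%, and C1qb and Pros1 were lost.

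Replicate numbers gave no clear sign of pairing the rats. Deviations of rats with the same number correlated at -0.188 to 0.27 (18 pairs, median -0.0021). With different numbers the range was -0.279 to 0.219 (36 pairs, median 0.00235). Between NP and P18 the same-number values were 0.27, -0.105 and 0.202 in BN and -0.0579, -0.0891 and 0.0995 in CD. A shared batch was not tested. With the number as a block 133 of the 134 genes remained and 37.9% of calls were higher in BN, and of the named genes Cyp24a1 was lost (4.20, edgeR adjusted p = 0.116).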
